A study of Homo sapiens with 18 samples.

Results

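The comparison described here sets T47D cells kept for 18 h in 10 nM R5020 against T47D cells kept for 6 h in the same dose, by Omni-ATAC-seq. T47D is an established human breast carcinoma line, and R5020 (promegestone) is a synthetic progestin. The 3 libraries of 10 nM at 18 h and the 3 at 6 h were chosen by their labels, together with 3 vehicle (DMSO) libraries at each time, out of 18 libraries in all. The other 6 libraries, from cells given 0.1 nM R5020 for 6 h or 18 h, entered the fit and are set beside the result. Cells of every group were first kept for 48 h in medium with 0.1% charcoal-stripped serum, so the vehicle cells are starved cells too. All 132604 regions of the deposited table belong to the comparison, and 132304 of them passed the filter on low counts and were tested. Whether the 3 libraries of a group are separate cultures is not stated by the labels, and the p-values therefore rest on a library-to-library spread that may be technical.

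In Omni-ATAC-seq the Tn5 transposase cuts open DNA, so reads in a region follow how accessible it is. The progesterone receptor is a steroid receptor that binds DNA when it holds a progestin and recruits coactivators and chromatin remodellers, and T47D cells are widely used because they make much of it. Hormone-bound receptor is also known to be turned over faster than free receptor, and its target genes are known to respond early, late or transiently. Regions are named by hg19 coordinates as the table gives them. No gene name or sequence is given, because the annotation at hand is of another build.

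Libraries of 10 nM at 18 h held 39984217, 10845301 and 8756311 counts in regions, those at 6 h 21015917 to 33726875, and vehicle libraries 11468476 to 29348455. Replicate 1 of 10 nM at 18 h stood apart: chi-square per degree of freedom was 23.6 and 28.2 between its counts and those of replicates 2 and 3, against 3.67 between replicates 2 and 3 and 3.34 to 4.65 among the 6 h libraries of this dose. In replicate 1 of 10 nM at 18 h the 5000 strongest regions held 37.4% of counts. They held 32.7% and 30.7% in replicates 2 and 3 and 33.5% to 34.6% at 6 h with this dose. Replicate 1 had the highest such share in every group, for example 39.6% against 36.6% and 33.0% with 0.1 nM at 18 h. The median SD of log2 CPM (counts scaled to library size, CPM) was 0.453 at 18 h and 0.237 at 6 h with 10 nM. Results are therefore also given without replicate 1 of 10 nM at 18 h.

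With 10 nM R5020, 1501 regions were less accessible at 18 h than at 6 h and 148 were more accessible, at an adjusted p under 0.05 in edgeR's quasi-likelihood test. These 1649 regions are 1.25% of those tested, with 1.13% lower and 0.112% higher. In vehicle cells the same test called 0 regions between the times, with 3796 (2.87%) at an unadjusted p under 0.05, and DESeq2 called 0, with 3941. With 10 nM, 14766 regions (11.2%) had an unadjusted p under 0.05. The median change over all tested regions was -0.02 on the log2 scale with 10 nM and 0.01 with vehicle. The difference between the change with 10 nM and the change with vehicle passed its own test at 2 regions (0.00151%). Both were lower with 10 nM. At an unadjusted p under 0.05 there were 7371 (5.57%), a share near the 0.05 that the threshold itself lets pass without any change. The vehicle share lies below it. These shares come from a fit that pairs no libraries. With a replicate block (terms for the replicate number), 7151 regions had an unadjusted p under 0.05 in vehicle and 10174 in the test of the difference. In the main fit a change called with 10 nM and not with vehicle is shown to differ from vehicle at those 2 regions only. By comparison, 10 nM differed from vehicle at 25.1% of regions at 6 h (16.7% higher and 8.42% lower) and 20.4% at 18 h (12.8% higher and 7.56% lower), so the change from 6 h to 18 h reached far fewer regions than the response itself.

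**Figure D1:**
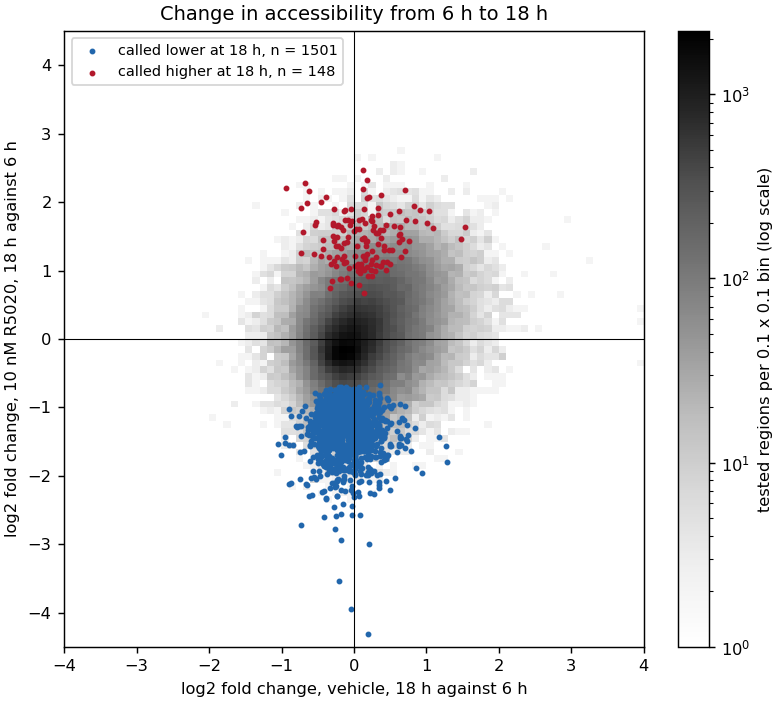
Each tested region's log2 fold change from 6 h to 18 h in vehicle cells (x axis) and with 10 nM R5020 (y axis), as a density of regions on a log grey scale, with values beyond the axes put in the outermost bins. Coloured points are the 1501 regions called lower (blue) and 148 called higher (red) with 10 nM; they spread on both sides of 0 on the vehicle axis.

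Most of the change was loss. Falls had a median log2 fold change of -1.25, with quartiles of -1.49 and -1.04. Of the 1501, 1190 fell by at least 2-fold and 64 by at least 4-fold. Replicate CPM values of the times did not overlap in 1501 of these regions, beside 16.7% of all tested regions with 10 nM and 9.51% with vehicle. The same 10 nM libraries chose the falls, so the lack of overlap follows largely from the choice and is no further support. Falling regions were well open at 6 h, with a median of 10.2 CPM against 2.42 CPM over all tested regions, and stood at a median of 4.29 CPM at 18 h. In vehicle cells their median level was 5.81 CPM at 6 h and 5.30 CPM at 18 h. Against the vehicle of the same time, the median log2 ratio of 10 nM was 0.88 at 6 h (quartiles -0.05 and 1.71) and -0.25 at 18 h (quartiles -1.13 and 0.47). These ratios use the libraries that chose the regions, so they describe where the falls began and ended and are not a further test. The quartiles show that the falls began over a range of levels, from well above vehicle to near it. The kinds named below are labels for parts of this range, and whether the kinds are distinct was not tested.

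Rises were fewer, and those called with this scaling lay in weaker regions. Under trended offsets 153 of 260 rises were in the strongest of 4 bins of vehicle level. Among the 148, the log2 change had a median of 1.44. Of these regions, 135 rose by at least 2-fold and 12 by at least 4-fold. Their median level went from 1.79 CPM at 6 h to 4.64 CPM at 18 h, beside 1.74 and 1.94 CPM in vehicle cells. Replicate values of the times did not overlap in 147, again in the libraries that chose the regions. The median log2 ratio to vehicle was 0.15 at 6 h, with quartiles of -0.74 and 0.77, and 1.37 at 18 h, with quartiles of 0.44 and 2.07.

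The 0.1 nM comparison has no library in common with the 10 nM comparison, but both come from 1 fit and share its scaling and its estimate of the spread of each region. A region with a small estimated spread therefore passes more easily in both, and the part of this in the shares of small p values was not tested. The 0.1 nM groups themselves differed between the times at 2 of 132304 regions (0.00151%), both lower at 18 h. Of the 148 rises with 10 nM, 142 (95.9%, against 52.9% of all tested regions) had a log2 change above 0 with 0.1 nM too, and 85, or 57.4%, had an unadjusted p under 0.05 in that direction, against 6.34% of all tested regions. Of the 1501 falls, 1151 had a log2 change under 0 with 0.1 nM, or 76.7%, against 47.1% of all tested regions and 61.9% of those whose mean log2 CPM was 1 or more. Of these falls 408, or 27.2%, had an unadjusted p under 0.05 in that direction, against 3.47% of all regions and 5.19% of those at that level. In vehicle 94 of the rises (63.5%, against 51.0% of all tested regions) had a log2 change above 0, and 8 (5.41% against 1.55%) a small p in that direction. Among the falls, 1059 (70.6%) had a log2 change under 0 in vehicle, against 49.0% of all tested regions and 58.9% of those at that level, and 70 (4.66%) a small p, against 1.32% and 1.73%. The direction of the falls was thus nearly as common in vehicle as with 0.1 nM. Median log2 CPM over the rises was 1.13, 1.20 and 1.05 in the 0.1 nM libraries at 6 h and 1.73, 1.48 and 1.54 at 18 h. Over the falls it was 2.58, 2.40 and 2.64 at 6 h and 2.20, 2.18 and 2.31 at 18 h. With 0.1 nM, times do not overlap in either set, though over the falls they do under trended offsets, a scaling that varies with level (2.47, 2.35 and 2.56 against 2.18, 2.16 and 2.38). Vehicle medians over the falls were 2.63, 2.47 and 2.49 (6 h) against 2.42, 2.38 and 2.46 (18 h), a smaller step that has no overlap here and overlaps under trended offsets (2.56, 2.38 and 2.46 against 2.34, 2.33 and 2.47). Over the rises the vehicle libraries overlapped, at 0.78, 0.88 and 1.06 at 6 h and 0.88, 0.96 and 1.01 at 18 h. With 0.1 nM the strongest regions held 39.3%, 36.6% and 38.4% of counts at 6 h and 39.6%, 36.6% and 33.0% at 18 h, and the part of this share in the result was not tested.

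**Figure D2:**
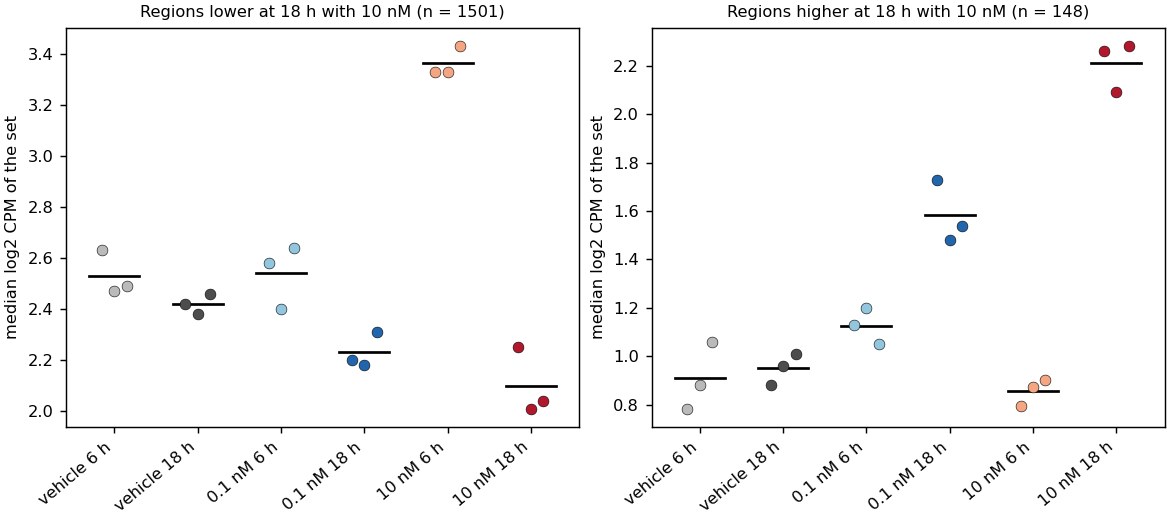
Median log2 CPM of each library over the 1501 regions that fell (left) and the 148 that rose (right) with 10 nM between 6 h and 18 h; points are libraries in replicate order and lines are group means. The regions were chosen by the 10 nM difference, with the spread taken from all libraries; the 0.1 nM libraries are lower at 18 h over the falls and higher over the rises, with no overlap between times under this scaling.

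Among regions whose log2 CPM averaged 1 or more over the 10 nM and vehicle libraries, with no overlap between the times, 1365 fell and 85 rose, and the 12 largest of each are described next. The 12 largest falls were 4.67-fold to 7.67-fold, lay on 9 chromosomes and were 400 to 1070 bp wide. Vehicle changed between -0.62 and 0.06 (log2) at these regions and was called at none of them. The test of the difference from vehicle was missed at each, with adjusted p values from 0.0701 to 0.409. A first kind of fall was a region opened at 6 h and back at the vehicle level at 18 h. The largest fall of all 12 was of this kind, on chromosome 17 from 72432427 to 72432862. It stood at 10.4, 9.93 and 11.9 CPM at 6 h and at 1.05, 1.88 and 1.40 CPM at 18 h with 10 nM, 7.67-fold lower (log2 -2.94, SE 0.38, edgeR adjusted p = 0.000758). Vehicle libraries held 1.79, 0.994 and 3.32 CPM at 6 h and 1.51, 1.70 and 2.00 CPM at 18 h. The 6 h libraries of 10 nM are high and the 18 h libraries lie among the vehicle values. Against vehicle the region was higher at 6 h (log2 2.45, edgeR adjusted p = 4.53e-05), and at 18 h the difference missed the threshold (log2 -0.31, adjusted p = 0.621). With 0.1 nM it stood at 0.975 to 1.55 CPM at 6 h. The 0.1 nM difference from vehicle there missed the threshold (log2 -0.60, adjusted p = 0.776).

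The region on chromosome 2 from 56067035 to 56067620 held 6.79, 4.45 and 7.46 CPM at 6 h and 1.02, 0.736 and 1.77 CPM at 18 h with 10 nM, beside vehicle means of 1.57 and 1.51 CPM. It fell 5.42-fold (edgeR adjusted p = 0.00243). A further region on chromosome 17 from 21122113 to 21122513 went from 6.32, 5.39 and 7.73 CPM to 1.08, 2.21 and 0.932 CPM, 4.70-fold, and vehicle means were 1.48 and 1.60 CPM. In both, the 18 h libraries of 10 nM overlap the vehicle libraries. On chromosome 6, the region from 16842745 to 16843432 passed from above vehicle to below it. Its libraries held 14.7, 12.4 and 14.6 CPM at 6 h and 3.57, 1.72 and 2.14 CPM at 18 h with 10 nM, while vehicle held 5.46 ± 0.200 CPM and 4.91 ± 0.674 CPM (SD, n = 3). It was higher than vehicle by 1.35 (log2) at 6 h and lower by -0.92 at 18 h (edgeR adjusted p = 0.000531 and 0.0189). On chromosome 3 from 23285761 to 23286161, 10 nM stood at 7.35, 5.39 and 7.52 CPM at 6 h and 1.92, 0.900 and 0.932 CPM at 18 h, beside vehicle at 4.52, 3.79 and 4.29 CPM and 3.49, 2.98 and 3.12 CPM. Every 10 nM library lay above vehicle at 6 h, though that difference missed the threshold (log2 0.69, edgeR adjusted p = 0.0858), and below it at 18 h (log2 -1.25, adjusted p = 0.00668). The 0.1 nM libraries there went from 2.01, 1.37 and 2.82 CPM to 0.609, 0.415 and 0.778 CPM (edgeR adjusted p = 0.14).

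A second kind of fall began at the vehicle level. On chromosome 10, the region from 51767412 to 51768276 stood at 18.3, 20.7 and 17.5 CPM at 6 h with 10 nM, among the vehicle values of 25.7, 19.2 and 13.1 CPM. At 18 h it stood at 3.97, 4.33 and 3.17 CPM, below the vehicle values of 17.5, 18.0 and 13.6 CPM. The fall of 4.90-fold had an edgeR adjusted p of 0.000227, the smallest of the comparison and shared with a region on chromosome 17 given below, and the difference from the vehicle change was just short of the threshold (log2 -2.05, adjusted p = 0.0701). Chromosome 16 from 27567506 to 27568343 held 4.92, 4.36 and 5.53 CPM at 6 h and 0.762, 0.981 and 1.40 CPM at 18 h with 10 nM, and vehicle held 4.86 ± 0.556 CPM and 4.85 ± 0.848 CPM. Its 10 nM values at 18 h lie below all vehicle values. Near it in size, the region on chromosome 2 from 35519590 to 35520114 went from 4.36, 4.41 and 4.54 CPM to 1.37, 0.572 and 0.466 CPM. On chromosome 10 from 75436030 to 75437006, levels fell from 9.79, 14.1 and 8.08 CPM to 2.92, 2.54 and 1.03 CPM, and vehicle means were 12.9 and 9.63 CPM.

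The third kind was already below vehicle at 6 h and went lower. Chromosome 5 from 161863093 to 161863647 had vehicle values of 13.5, 11.0 and 7.77 CPM at 6 h and 9.49, 9.26 and 8.13 CPM at 18 h. With 10 nM it stood at 3.33, 4.14 and 1.70 CPM at 6 h and 0.315, 0.736 and 0.373 CPM at 18 h, 6.87-fold lower (edgeR adjusted p = 0.00418). Levels on chromosome 14 from 37747878 to 37748632 fell from 7.72 ± 1.31 to 1.55 ± 0.628 CPM with 10 nM, with vehicle at 16.9 ± 6.05 and 12.3 ± 3.52 CPM. The 0.1 nM libraries there held 5.35, 3.16 and 3.45 CPM at 6 h and 1.43, 1.04 and 0.194 CPM at 18 h (log2 -2.01, edgeR adjusted p = 0.172). The strongest of the 12 falls, on chromosome 1 from 214810242 to 214811312, held 35.3, 33.3 and 27.2 CPM at 6 h and 9.12, 4.01 and 5.31 CPM at 18 h. Vehicle there ranged from 34.2 to 79.6 CPM at 6 h, and its difference from 10 nM missed the threshold at that time (edgeR adjusted p = 0.0821), so it belongs by the test with the second kind. By the tests against vehicle, 4 of the 12 were above vehicle at 6 h, 2 were below and 6 passed in neither direction, and at 18 h 0 were above, 9 were below and 3 passed in neither direction. Without replicate 1 of 10 nM at 18 h all 12 remained called.

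**Figure D3:**
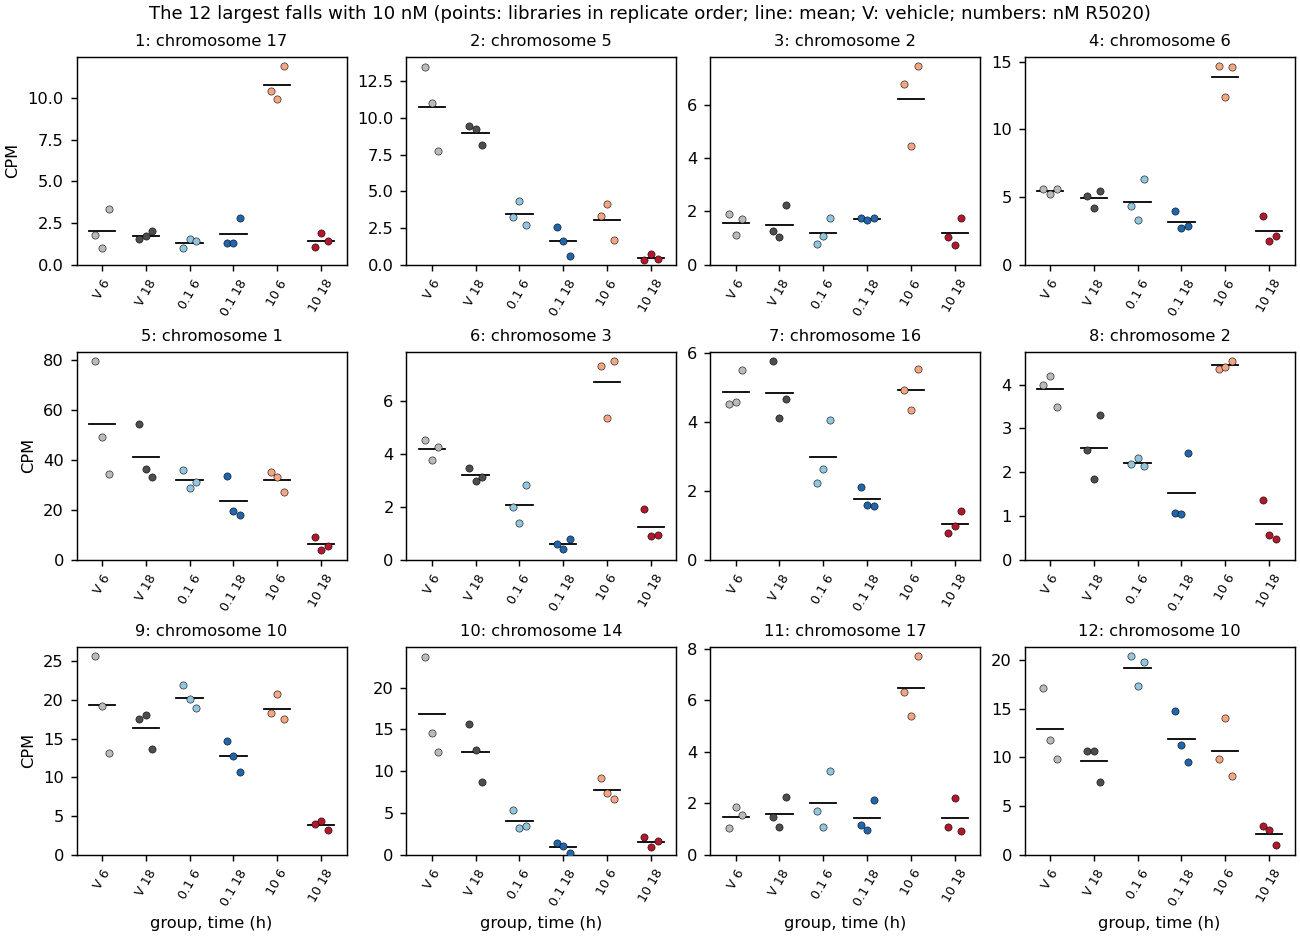
CPM of the 12 largest falls with 10 nM, numbered by size of the log2 fold change and labelled by chromosome, in every library of the 6 groups (V is vehicle, 0.1 and 10 are nM of R5020, followed by the hours); lines are means of 3 libraries. In panels 1, 3 and 11 the 10 nM libraries stand far above vehicle at 6 h and among the vehicle libraries at 18 h, and in panels 7 and 9 they stand among vehicle at 6 h and below it at 18 h.

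The 12 largest rises were 3.03-fold to 4.57-fold on 8 chromosomes, at lower levels than the falls. Vehicle changed between -0.29 and 0.71 (log2) at these regions and the test of the difference from vehicle was missed at each, with adjusted p values from 0.126 to 0.887. Against vehicle, 4 of the 12 were higher at 6 h, 5 were lower and 3 passed in neither direction, while at 18 h 7 were higher, 0 were lower and 5 passed in neither direction. The largest rise, on chromosome 7 from 25702537 to 25702982, went from 1.45, 1.51 and 1.46 CPM to 8.67, 4.42 and 6.99 CPM with 10 nM (log2 2.19, SE 0.33, edgeR adjusted p = 0.00167). Vehicle libraries held 0.735 to 1.86 CPM over both times. The 0.1 nM libraries went from 3.52, 2.86 and 3.70 CPM to 17.3, 10.2 and 9.24 CPM, above 10 nM at both times, though their own change had an adjusted p of 0.0633.

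Rises that carried an early gain further included the region on chromosome 20 from 19233372 to 19233753, which went from 2.11, 1.74 and 3.13 CPM to 10.2, 6.46 and 6.62 CPM, beside vehicle means of 0.712 and 1.13 CPM. On chromosome 7 from 80893446 to 80893741, 10 nM went from 3.94, 2.94 and 3.60 CPM to 13.1, 8.59 and 10.1 CPM, with 0.1 nM at 1.31 to 2.04 CPM and vehicle at 0.735 to 1.65 CPM. The change with 0.1 nM was 0.22 (log2, edgeR adjusted p = 0.763), and the difference between the doses was not tested. On chromosome 5 from 42606553 to 42607039, levels went from 2.08 ± 0.532 to 6.68 ± 2.12 CPM, and on chromosome 8 from 48282046 to 48282387 from 2.01 ± 0.410 to 6.32 ± 1.40 CPM. The 6 h difference from vehicle missed the threshold at both.

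At 18 h the 5 rises that began below vehicle missed the threshold against it, with means from below vehicle to above it. On chromosome 3, the region from 104330780 to 104331765 had vehicle values of 3.47, 3.31 and 3.16 CPM at 6 h and 3.06, 2.98 and 2.95 CPM at 18 h. With 10 nM it stood at 0.843, 1.38 and 1.11 CPM at 6 h, below vehicle (log2 -1.57, edgeR adjusted p = 0.000438), and at 3.68, 3.11 and 5.59 CPM at 18 h, where the difference missed the threshold (0.44, adjusted p = 0.274). The 0.1 nM libraries stood above vehicle at both times, at 5.49, 4.12 and 8.69 CPM and at 11.9, 9.54 and 9.82 CPM. On chromosome 6 from 145433874 to 145434393, 10 nM went from 1.18 ± 0.153 to 3.73 ± 0.453 CPM beside vehicle means of 4.02 and 3.50 CPM and 0.1 nM means of 6.98 and 10.6 CPM. Chromosome 1 from 116306062 to 116306582 went from 0.328, 0.846 and 1.05 CPM to 2.44, 2.21 and 4.01 CPM, with 0.1 nM means of 4.01 and 7.63 CPM. On chromosome 20 from 15136560 to 15136923, 10 nM went from 1.0 ± 0.394 to 2.99 ± 0.514 CPM, with vehicle at 4.26 ± 1.19 and 4.56 ± 1.29 CPM and 0.1 nM means of 5.85 and 10.9 CPM. Chromosome 5 from 90515011 to 90515379 went from 0.925 ± 0.252 to 3.49 ± 1.52 CPM, with 0.1 nM means of 1.76 and 2.30 CPM. In 4 of these 5 regions the mean of 0.1 nM was thus above the 10 nM mean and the vehicle mean at both times. Without replicate 1 of 10 nM at 18 h, 2 rises were no longer called, that on chromosome 8 and the one at 23960066 to 23960716 of chromosome 19 (edgeR adjusted p = 0.0575 and 0.052) and the other 10 of the 12 remained called. Leaving out 10 nM replicate 1, 2 or 3 of 6 h ended 5, 5 and 6 of the 12 rise calls, leaving out replicate 2 or 3 of 18 h ended 1 and 3, and fitting the 6 libraries alone ended 3. None of these settings ended the call of any of the 12 falls.

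**Figure D4:**
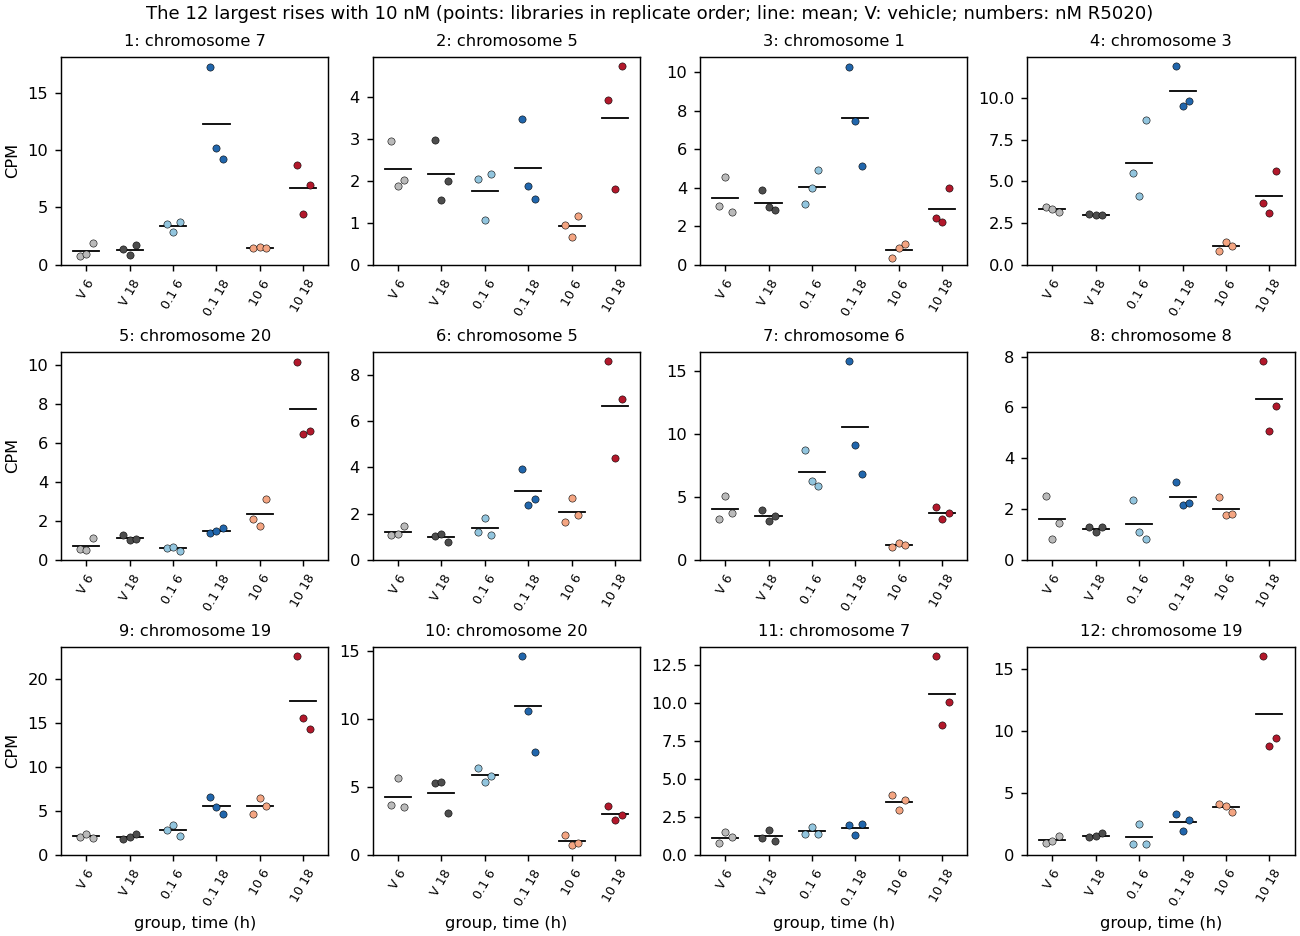
CPM of the 12 largest rises with 10 nM, numbered by size and labelled by chromosome, in every library of the 6 groups, with axes as for the largest falls. In panels 3, 4, 7 and 10 the 10 nM libraries lie below vehicle at 6 h and closer to it at 18 h while the 0.1 nM means lie above both. Panels 9 and 12 are on chromosome 19 and lie in 1 run of rising regions.

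Some changed regions lay close together. The runs described here were found by counting called regions of 1 direction in windows of 500 kb, so they were chosen for their values and are a description. The longest run of rises held 7 of the 148 and lay on chromosome 19 from 23960066 to 24257008, a span of 297 kb with 33 tested regions. Of the 33, 25 had a log2 change above 0 with 10 nM, and the median change was 0.66 with 10 nM, 0.52 with 0.1 nM and 0.19 with vehicle. Median log2 CPM over the 7 called regions was 1.20, 1.19 and 1.40 in the 10 nM libraries at 6 h and 2.81, 2.66 and 2.64 at 18 h, with no overlap. The 0.1 nM libraries overlapped between the times, at -0.03, 1.35 and 0.02 and at 1.76, 1.29 and 1.22. The strongest of the 7, from 24242381 to 24243062, went from 4.59, 6.50 and 5.56 CPM to 22.6, 15.6 and 14.3 CPM with 10 nM (edgeR adjusted p = 0.00103), from 2.76 ± 0.629 to 5.52 ± 1.01 CPM with 0.1 nM, while vehicle stood at 2.07 ± 0.256 and 2.02 ± 0.250 CPM. The region from 24081807 to 24082186 was at the vehicle level at 6 h (0.426 ± 0.0180 CPM against 0.435 ± 0.0391 CPM) and reached 2.13 ± 0.365 CPM at 18 h. Without replicate 1 of 10 nM at 18 h, 5 regions of the span were called higher. A shorter run on chromosome 7 from 64059348 to 64459035 held 3 rises among 28 tested regions, the strongest from 5.26 ± 0.294 to 11.0 ± 0.164 CPM, and 3 were called without that library. Chromosome 19 held 10 rises in 3865 tested regions, or 0.259%, against 0.112% over all chromosomes, and 24 falls, or 0.621% against 1.13%. The share of rises on chromosome 19 was 0.414% without replicate 1 of 10 nM at 18 h, against 0.447% over all chromosomes, so its higher share of rises depends on that library.

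Falls gathered on chromosome 15 from 99397359 to 99675750, where 7 of 29 tested regions fell and 27 of the 29 had a log2 change under 0. The median change over the 29 was -0.80 with 10 nM, -0.15 with 0.1 nM and 0.07 with vehicle. The largest of the 7, from 99415682 to 99416331, went from 18.9 ± 1.51 to 5.29 ± 1.59 CPM with 10 nM (edgeR adjusted p = 0.00101) and ended at the vehicle level of 5.25 ± 0.884 CPM, after standing above vehicle at 6 h (6.08 ± 1.84 CPM). Its neighbour from 99399795 to 99400067 went from 5.47 ± 0.326 to 1.92 ± 0.735 CPM, beside 0.718 ± 0.323 and 0.937 ± 0.218 CPM in vehicle. In the same run, 99420347 to 99420677 went from 2.94 ± 0.625 CPM, near vehicle, to 0.904 ± 0.353 CPM, below the 3.03 ± 0.202 CPM of vehicle, so falls of both kinds stood side by side. On chromosome 3 from 14967300 to 15265613, 6 of 32 tested regions fell, each from above vehicle, while 20 of the 32 had a log2 change under 0 and their median was -0.25. The region from 15033728 to 15034429 went from 27.8 ± 5.37 to 12 ± 3.59 CPM with vehicle at 4.61 ± 0.169 and 4.61 ± 0.562 CPM, so it remained above vehicle at 18 h (log2 1.39, edgeR adjusted p = 0.000153). Another run on chromosome 1 from 207151551 to 207472685 held 5 falls among 26, with 15 of the 26 under 0 and a median of -0.07. Without replicate 1 of 10 nM at 18 h, 7, 7 and 5 regions of these runs were called lower.

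Regions were then classed by their response, to see where in it the change with time lay. Classes from the mean of both times were used, since a class taken at 6 h alone would drift back by selection. The spread at 18 h was larger than at 6 h, so these classes are still not wholly separate from the time change, and no test was made. Of 29411 regions above vehicle in the mean of both times (22.2% of those tested), 687 fell (2.34%) and 84 rose (0.286%). Of 21201 below vehicle (16%), 422 fell (1.99%) and 23 rose (0.108%). Of 81692 in neither class, 392 fell (0.48%) and 41 rose (0.0502%). Median changes in the classes were -0.10, -0.15 and 0.06 with 10 nM and 0.18, -0.15 and 0.02 with vehicle. Regions above and below vehicle both held a larger share of falls than those in neither class, and the size of the median change was small in each. Class and fall were called in 1 fit with 1 estimate of the spread of each region, so a region with a small spread passes more easily in both. Median standard errors of the 10 nM time change were 0.391, 0.273 and 0.371 in the classes. The part of spread and of level in these shares was not tested. With the classes redrawn without replicate 1 of 10 nM at 18 h, the medians were -0.15, -0.40 and 0.17. Of 74051 regions in neither class, 430 then rose (0.581%), against 0.447% of all tested regions. Shares above and below vehicle were 0.273% and 0.279%. Regions in neither class thus held the smallest share of rises with all libraries and the largest without this one.

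Classes from 0.1 nM against vehicle at 6 h compare no 10 nM library, but they come from the same fit. They share its scaling and its estimate of the spread of each region, which the 10 nM libraries helped set. The median standard error of the 10 nM time change was 0.253 above vehicle and 0.296 below it, against 0.357 over all tested regions. The part of this in the shares that fell was not tested. Of the 1256 regions above vehicle with 0.1 nM (0.949% of those tested), 67 fell with 10 nM between the times (5.33%, against 1.13% of all regions). In the same class 4 rose (0.318%, against 0.112% of all regions). Of the 319 below vehicle with 0.1 nM (0.241%), 30 fell (9.40%) and 0 rose. The numbers that rose depend on the processing, which also redraws the classes. Under trended offsets 25 of 1562 regions above vehicle (1.60%) and 2 of 422 below it (0.474%) rose, against 0.197% of all tested regions. Without replicate 1 of 10 nM at 18 h, 7 of 1553 (0.451%) and 5 of 510 (0.98%) rose, against 0.447% of all. Over the 1256, median log2 CPM in the 10 nM libraries was 3.15, 3.13 and 3.24 at 6 h and 3.21, 2.87 and 2.86 at 18 h. Values overlap there through replicate 1 of 18 h, and the difference of -0.19 had a two-sided exact permutation p of 0.3. Over the 319, it was 1.20, 1.21 and 1.18 at 6 h and 0.76, 0.79 and 0.90 at 18 h, a difference of -0.38 with no overlap between the times (exact permutation p = 0.1, the smallest that 3 against 3 libraries allow). Vehicle moved by -0.26 over the same 319 regions, with 3.50, 3.19 and 2.87 at 6 h and 3.08, 2.86 and 2.85 at 18 h, but the vehicle libraries at 6 h helped choose these regions.

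Falls were found more often in strong and wide regions. In 4 equal bins of the mean vehicle level, from weakest to strongest, 0.175%, 0.602%, 1.52% and 2.24% of regions fell and 0.109%, 0.139%, 0.157% and 0.0423% rose. The median standard error of the 10 nM time change went from 0.563 in the weakest to 0.235 in the strongest bin, so a change of a given size was easier to call in strong regions, and the part of this in the result was not tested. The median change went from 0.24 to -0.16 over the same bins with 10 nM and from 0.29 to -0.11 with vehicle, so this slope was also present without progestin. It depends on the scaling. With trended offsets the medians of the weakest and strongest bin were 0.005 and -0.004 with 10 nM and 0.15 and -0.02 with vehicle. Under trended offsets the counts of rises over the bins were 18, 35, 54 and 153, so the low share of rises in the strongest bin depends on the scaling. In 4 bins of width, with median widths of 188, 306, 495 and 894 bp, 0.103%, 0.466%, 1.64% and 2.33% fell, with standard errors of 0.529 to 0.248. Falling regions had a median width of 651 bp and rising ones 413 bp, against 387 bp over all tested regions. By distance to the nearest other region the share that fell ranged from 0.889% in the most isolated of 4 bins to 1.33% in the bin with a median distance of 3787 bp. Between chromosomes the share of falls ranged from 0.621% on chromosome 19 to 1.56% on chromosome 4, leaving out chromosome Y, where 0 of 185 tested regions were called.

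The 2 regions where the change with 10 nM differed from that with vehicle were both open at 6 h. The region on chromosome 2 from 86181916 to 86182603 held 14.7, 18.5 and 11.6 CPM at 6 h and 4.73, 3.27 and 3.17 CPM at 18 h with 10 nM, while vehicle held 6.51, 5.08 and 5.34 CPM and 7.76, 5.97 and 7.84 CPM. It lay above vehicle at 6 h and below it at 18 h without overlap. The region on chromosome 17 from 53665309 to 53666337 held 20.8, 24.5 and 24.3 CPM and then 5.57, 7.44 and 4.47 CPM with 10 nM, with vehicle between 14.7 and 18.5 CPM at both times. With 0.1 nM the changes there were -0.68 and -0.32 (log2, edgeR adjusted p = 0.409 and 0.586). Both calls were close to the threshold (edgeR adjusted p = 0.0462 at each). They held without replicate 1 of 10 nM at 18 h (edgeR adjusted p = 0.0127 and 0.0236). Leaving out any 1 of the other 11 libraries of 10 nM and vehicle ended at least 1 of these calls, with adjusted p values of up to 0.192. The 2 regions that were lower at 18 h than at 6 h with 0.1 nM both lay on chromosome 12. The region from 40731769 to 40732609 also fell with 10 nM, from 5.15, 5.70 and 6.26 CPM to 1.39, 1.72 and 1.68 CPM. With 0.1 nM it went from 7.03, 7.22 and 9.86 CPM to 2.61, 3.39 and 3.01 CPM, and vehicle changed by -0.24 (log2). The other, from 45989950 to 45990869, went from 3.78 ± 0.528 to 2.78 ± 0.585 CPM with 10 nM, a change that missed the threshold (log2 -0.49, edgeR adjusted p = 0.344). There 10 nM was already far below the vehicle level of 28.0 ± 3.79 CPM at 6 h. Vehicle itself stood at 19.9 ± 0.977 CPM at 18 h, also a change of -0.49 (log2, edgeR unadjusted p = 0.0119, adjusted p = 0.999). The 0.1 nM change was not tested against the vehicle change.

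Replicate 1 of 10 nM at 18 h was the deepest library and stood apart among the 10 nM libraries. Leaving it out gave 2679 falls and 591 rises. The fit without this library kept 1293 of the 1501 falls (86.1%) and 87 of the 148 rises (58.8%). These are 48.3% of the falls and 14.7% of the rises called without it. The median change over all tested regions was then -0.05. In the 1501 falls this library was the highest of the 3 at 18 h in 878 (58.5%), against 42.5% of all tested regions. Leaving out any other library of the 2 groups lowered both counts, to 539 to 812 falls and 25 to 62 rises. The count thus rests on each of the other 5 libraries, and falls outnumbered rises in each case, with 81.9% to 96.9% of calls being falls.

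**Figure D5:**
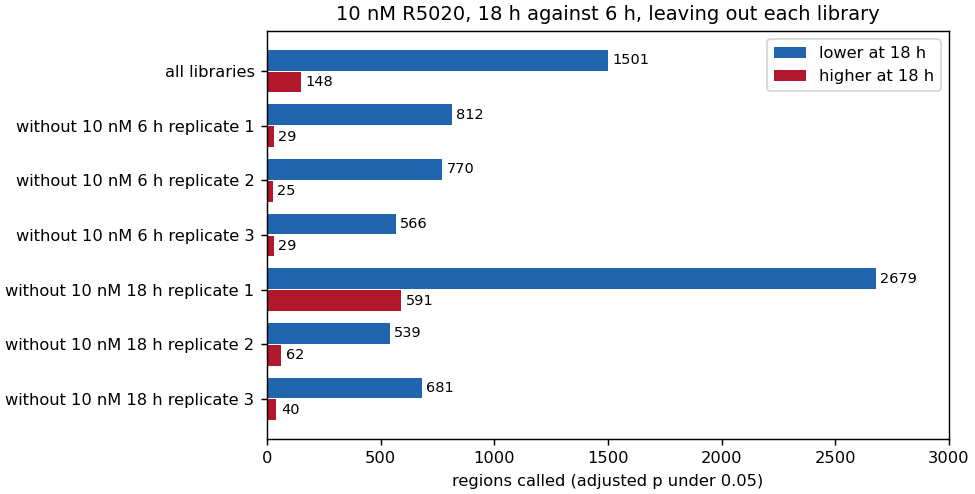
Number of regions called lower (blue) and higher (red) at 18 h than at 6 h with 10 nM R5020, with all libraries and with each library of the 2 groups left out; bars start at 0. The calls rise to 2679 and 591 without replicate 1 of 18 h and fall in each other case.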

How the data were processed

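Omni-ATAC-seq libraries of T47D cells were grouped by their titles. The authors deposited raw, unnormalized read counts per region in 1 table. The submitters' processing notes name BWA, MACS2 and hg19. Tool versions, read filters, any Tn5 shift and how the region list was made were not given in the sources used here. A region that few libraries held open may not be on it.

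For the tests, filterByExpr of edgeR 4.0.16 (R 4.3.3; minimum count 10, minimum total 15) left out 300 regions and TMM scaled the libraries. A quasi-likelihood model of the 18 libraries had 1 coefficient for each of 6 groups, leaving 12 residual degrees of freedom. Calls used Benjamini-Hochberg adjusted p under 0.05. Standard errors are the size of the log2 fold change over the square root of F. CPM came from edgeR's cpm function, and log2 CPM used a prior count of 2. DESeq2 1.42.0 was an alternative, beside other scalings, filters, a covariate, a replicate block and leaving out each library.

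Named regions are the 12 largest called falls and the 12 largest called rises that met the level and overlap conditions in the text, and each called region of the interaction and of 0.1 nM. The comparison, rules and alternatives were chosen with earlier results of these data known. Replicate numbers did not pair the 10 nM libraries of the times (r of deviations -0.23, 0.03 and 0.01 across regions). Same-numbered vehicle libraries had r of 0.32, 0.12 and 0.45, each over 0.1, which is a pairing read from the counts alone, as no label states one. Replicates of a group differed beyond sampling noise, so none was counted as a repeat. In simulated counts over 132304 regions for this comparison, 74 of 100 regions changed by 4-fold and 10 of 100 changed by 2-fold were called, with 7 calls among unchanged regions. The changed regions were drawn above a floor of vehicle level, and no other region was given a difference between groups. Far more regions were called in the real counts, so the simulated shares may not hold there.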

Additional observations from a re-analysis of the deposited data

Results flagged for a closer look

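A pair of regions differed between 10 nM R5020 and vehicle in their change from 6 h to 18 h by the test of that difference. The region on chromosome 2 from 86181916 to 86182603 had a log2 difference of -2.33 and the region on chromosome 17 from 53665309 to 53666337 one of -2.0 (edgeR adjusted p = 0.0462 at each).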

How the results depend on the processing

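With 10 nM, falls outnumbered rises under every alternative run. Leaving out 1 library gave 25 to 591 rises and 539 to 2679 falls. The vehicle comparison gave 0 calls under every alternative run. Rises and falls with 10 nM numbered 260 and 1599 with trended offsets, 47 and 340 when the 6 libraries were fitted alone, 302 and 2871 with DESeq2, 878 and 5685 with a covariate (the percent of each library's counts that the 5000 strongest regions took), and 24 and 499 at an adjusted p under 0.01. Rises numbered 289 when weak regions (mean log2 CPM under 1) were left out. A replicate block gave 481 and 3297, and the named rises and falls all remained called.

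The difference from vehicle was called at 1 region higher and 26 lower with library totals, 5 and 47 with trended offsets, 5 and 52 without weak regions, 13 and 219 with DESeq2, 27 and 594 with the covariate, and 10 and 179 with the replicate block. It was called at 0 lower with median-of-ratios factors, with the compared groups only and at an adjusted p under 0.01. Leaving out 1 library gave 0 to 2 higher and 0 to 61 lower. How many regions differ from vehicle is therefore set largely by the method.

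For 0.1 nM, whose alternatives were chosen after seeing the data, higher and lower calls numbered 7 and 4 with library totals, 18 and 8 with trended offsets, 31 and 13 without weak regions, 117 and 65 with DESeq2, 148 and 83 with the covariate and 71 and 76 with the replicate block. Lower calls were 0 with the compared groups only, at an adjusted p under 0.01 and on leaving out each library.

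Response classes were redrawn under each setting. Without replicate 1 of 10 nM at 18 h, 29630 regions were above vehicle, 28623 below it and 74051 in neither class. Of these 1182 (3.99%), 793 (2.77%) and 704 (0.951%) fell, against 2.02% of all tested regions. Rises in the last 2 classes were 80 (0.279%) and 430 (0.581%), against 0.447% of all. With trended offsets they were 62 (0.342%) and 87 (0.1%), against 0.197%. Falls in the 0.1 nM classes were 153 (9.85%) and 58 (11.4%) without that library. In the lower class with trended offsets they were 50 (11.8%), against 1.21% of all. Without that library the share that fell was 0.348% and 4.12% in the weakest and strongest bin, 0.272% and 4.09% in the narrowest and widest, 2.00% and 1.77% in the closest and most isolated, and 1.19% on chromosome 19. The 12 largest falls remained called under every alternative run. The cause of these differences was not tested.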
